A study of Mus musculus with 14 samples.

Results

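The AP-1 and immediate early genes Fos, Fosb, Fosl1, Jun, Junb, Egr1, Atf3, Ier3, Myc and Nr4a1 were followed in whole eyes of newborn mice lacking a chromatin remodelling ATPase. The members were taken by name, and every probe set annotated to 1 of these genes alone was used. That gave 12 probe sets for 10 genes, among 22626 probe sets and 12393 genes on the array. Fosl1 and Jun each have 2 probe sets and the other 8 genes have 1. All levels are log2 of the deposited intensity, and all changes are log2 levels in knockout minus wildtype arrays.

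RNA came from eyes at postnatal day 1, and 50 ng of each RNA was amplified and labelled with biotin. The Snf2h experiment holds 4 wildtype samples and 4 lens-conditional Snf2h knockout (cKO) samples, all C57BL/6. The Brg1 experiment holds 3 wildtype and 3 Brg1 cKO samples on a mixed background. Smarca5 encodes Snf2h, which drives the ISWI remodellers, and Smarca4 encodes Brg1, which drives SWI/SNF remodellers. The labels name no Cre driver or promoter for either knockout, and the cells that lost Brg1 are not stated in them. All 3 Brg1 cKO samples carry the genotype label Brg1_cKO1 while their titles are numbered 1 to 3. The design text mentions 4 biological replicates, and where the labels do not name separate animals the p-values measure only the spread between these samples. No sample serves both experiments.

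AP-1 is a dimer of a Fos protein with a Jun protein, or of Jun proteins, that binds DNA at short palindromic sites. Its subunits belong to the immediate early genes, which are transcribed within minutes of a growth factor, stress or calcium signal, through serum response factor and CREB that are already bound at their promoters, and which fall silent again soon after. The same class holds the zinc finger factor Egr1, the orphan nuclear receptor Nr4a1, the stress-induced repressor Atf3, the ERK-regulated survival protein Ier3 and the growth regulator Myc. Because they respond so fast, their RNA is also known to react to the handling of a tissue.

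Promoter sequence is shown for the 5 members whose upstream window holds TGACG, the core letters of the cAMP response element through which CREB acts. The windows are the 250 bases before the start in the RefSeq promoter table (GRCm38.p6). Windows on the chromosome of Egr1 were left out, and 7 of the 10 members had a window that was used. Each runs 5′ to 3′ on the strand of its gene, with the core in capitals, where CGTCA is the core read on the opposite strand. The Fos window lies at chr12:85473640-85473889 on the plus strand, Fosb at chr7:19310046-19310295 on the minus strand, Junb at chr8:84978749-84978998 on the minus strand, Atf3 at chr1:191183334-191183583 on the minus strand and Nr4a1 at chr15:101266596-101266845 on the plus strand.
Fos: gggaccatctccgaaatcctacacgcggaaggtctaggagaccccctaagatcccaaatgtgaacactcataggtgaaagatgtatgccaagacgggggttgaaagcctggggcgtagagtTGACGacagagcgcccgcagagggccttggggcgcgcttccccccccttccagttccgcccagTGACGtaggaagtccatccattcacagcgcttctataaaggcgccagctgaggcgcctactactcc
Fosb: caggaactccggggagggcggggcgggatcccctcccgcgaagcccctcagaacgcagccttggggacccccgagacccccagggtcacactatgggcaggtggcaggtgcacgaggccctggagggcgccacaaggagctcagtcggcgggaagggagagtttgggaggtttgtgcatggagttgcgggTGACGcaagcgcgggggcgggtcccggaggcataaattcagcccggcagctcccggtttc
Junb: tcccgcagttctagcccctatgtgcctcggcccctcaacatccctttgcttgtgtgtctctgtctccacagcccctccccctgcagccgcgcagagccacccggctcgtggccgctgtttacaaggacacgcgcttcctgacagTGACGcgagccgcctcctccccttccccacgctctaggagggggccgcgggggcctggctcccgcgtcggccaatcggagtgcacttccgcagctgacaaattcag
Atf3: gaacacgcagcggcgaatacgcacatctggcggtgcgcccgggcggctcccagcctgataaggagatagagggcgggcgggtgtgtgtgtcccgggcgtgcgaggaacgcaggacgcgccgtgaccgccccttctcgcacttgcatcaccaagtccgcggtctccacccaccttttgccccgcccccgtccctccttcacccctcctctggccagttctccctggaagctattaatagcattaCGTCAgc
Nr4a1: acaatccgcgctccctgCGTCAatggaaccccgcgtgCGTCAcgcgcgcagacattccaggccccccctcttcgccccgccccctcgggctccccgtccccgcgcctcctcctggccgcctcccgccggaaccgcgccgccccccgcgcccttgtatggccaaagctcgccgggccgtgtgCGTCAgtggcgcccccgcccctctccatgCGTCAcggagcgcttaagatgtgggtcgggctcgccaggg
The core occurs 4 times in the Nr4a1 window, 2 times in the Fos window and once in each of the others, and 17.8% of all 32851 windows of this length hold it. In the Fos window it lies 129 to 125 and 66 to 62 bases before the start, with TATAAA 33 to 28 bases before the start, a motif held by 12.4% of windows. GCGNGGGCG, the letters that Egr proteins bind, was found in the Fosb and Nr4a1 windows and in 4.7% of all windows. The NF-kB site was found in the windows of Fos, Fosb and Ier3 and in 7.25% of all windows. The CArG box of serum response factor, the AP-1 site TGANTCA, the full element TGACGTCA, which contains the core, and the Myc E-box CACGTG were in 0 of the 7 windows, against 1.47%, 6.75%, 1.55% and 6.02% of all windows. Both strands were searched for these letters alone and in 250 bases only, so variant sites and sites further upstream were not covered.

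The arrays had median intensities between 101 and 114. Smarca5 was lower in Snf2h cKO arrays by 1 of its 3 probe sets, with a change of -0.50 ± 0.16 (SE; limma, adjusted p = 0.192, 4 against 4 arrays), while the other two gave -0.19 and 0.31. Smarca4 in Brg1 cKO arrays gave -0.74 ± 0.30 (adjusted p = 0.579, 3 against 3 arrays) and 0.05 by its 2 probe sets, so in neither experiment did the targeted gene pass the test in whole-eye RNA. Snf2h cKO replicates 1 and 2 were near-identical, with an SD of 0.218 between their log2 values against 0.420 for the next closest pair within a group. The 3′ probe set of Gapdh exceeded the 5′ probe set by 4.47 in Snf2h wildtype replicate 3. On the other Snf2h wildtype arrays that gap was 1.09 to 1.46, and on the Snf2h cKO arrays 0.77 to 0.99. Every Snf2h wildtype array thus lay above every Snf2h cKO array. For Actb the groups overlapped, with 1.44 to 3.08 in wildtype and 1.34 to 1.83 in cKO arrays. The part of this in the Snf2h changes was not tested. In whole-eye RNA, fewer cells of a type and less RNA per cell cannot be told apart.

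None of the 12 probe sets passed an adjusted p of 0.05 in either knockout. By limma over all 22626 probe sets, 0 of 12 were called in Snf2h cKO eyes, where 0.0133% of all probe sets were, and 0 of 12 in Brg1 cKO eyes, where 0.592% were. At an unadjusted p under 0.05 the counts were 3 of 12 in Snf2h cKO eyes (17.7% of all probe sets) and 4 of 12 in Brg1 cKO eyes (8.06%). All 7 of these changes were positive. Among all probe sets at that p, 2217 of 4002 changes were positive in the Snf2h comparison and 980 of 1823 in the Brg1 comparison. Those positive changes make up 9.8% and 4.33% of all probe sets. The Brg1 changes lay above 0 for 9 of 12 probe sets with a median of 0.42, where 48.4% of all probe sets lay above 0 with a median of -0.01. The Snf2h changes lay above 0 for 6 of 12 with a median of -0.01, where 45.3% of all lay above 0 with a median of -0.04.

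The members that came closest to a call were Fosl1 and Junb in Brg1 cKO eyes. All Brg1 cKO arrays lay above all wildtype arrays for 4 of 12 probe sets, namely both of Fosl1, 1 of Jun and that of Junb, against 7.16% of all probe sets. In Snf2h cKO eyes this held for 3 of 12, namely 1 of Jun, Junb and Ier3, against 6.36%. No member had all knockout arrays below all wildtype arrays in either experiment, against 4.22% of all probe sets in the Snf2h and 6.37% in the Brg1 experiment. The difference between both knockout effects passed the test for 1 of 12, Fosl1, against 0.659% of all probe sets. The experiments also differ in strain, so gene deleted, strain and experiment cannot be told apart in such a difference.

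**Figure D1:**
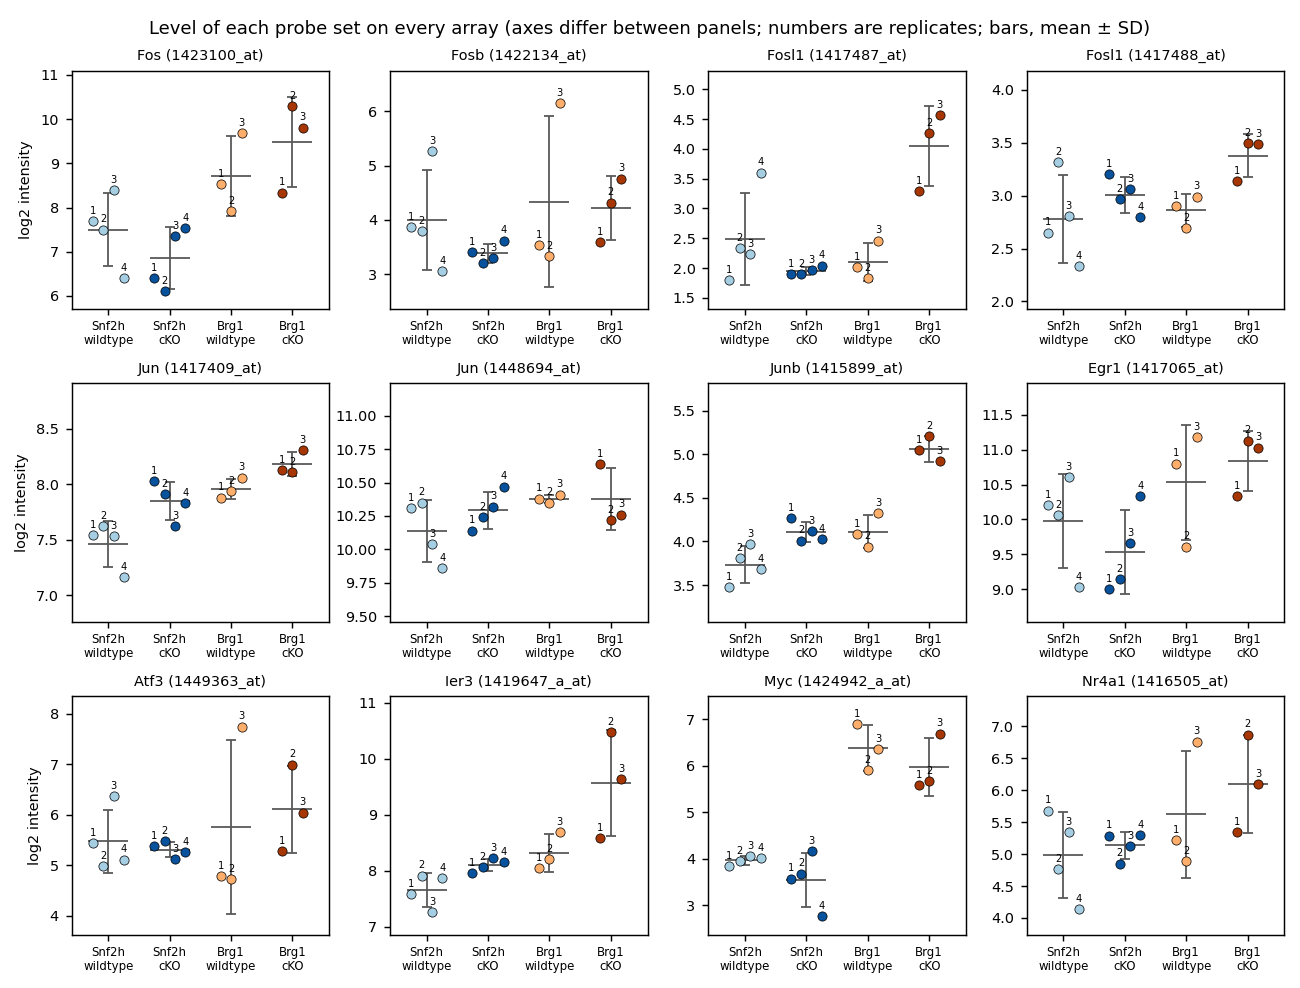
Log2 intensity of each of the 12 probe sets on each of the 14 arrays, in 1 panel per probe set with its own vertical axis. Points are arrays with their replicate number, and bars are the mean ± SD of a group. Fosl1 1417487_at and Junb separate the Brg1 groups, while Fos, Fosb, Atf3 and Nr4a1 spread widely within groups.

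Fos encodes the prototype partner of Jun in AP-1. Its probe set read 7.69, 7.50, 8.40 and 6.41 in the 4 Snf2h wildtype samples and 6.40, 6.11, 7.36 and 7.53 in the Snf2h cKO samples. In the Brg1 experiment it read 8.53, 7.92 and 9.69 in wildtype and 8.34, 10.29 and 9.81 in cKO samples. The groups overlapped in both experiments, since Snf2h wildtype replicate 4 sat with the lowest cKO arrays and Brg1 wildtype replicate 3 sat above Brg1 cKO replicate 1. The Snf2h change was -0.65 ± 0.44 (limma, adjusted p = 0.461) and the Brg1 change was 0.77 ± 0.60 (adjusted p = 0.804). With 1 array left out in turn the Brg1 change ran from 0.36 without cKO replicate 2 to 1.34 without cKO replicate 1. These changes have opposite signs, and their difference of 1.41 ± 0.79 did not pass the test (adjusted p = 0.482). By group mean the order was Snf2h cKO at 6.85 ± 0.70 (SD, n = 4), Snf2h wildtype at 7.50 ± 0.82 (n = 4), Brg1 wildtype at 8.71 ± 0.90 (n = 3) and Brg1 cKO at 9.48 ± 1.02 (n = 3), with neighbours overlapping at each step.

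Fosb, a Fos paralogue that also forms AP-1 with Jun proteins, read 3.87, 3.79, 5.27 and 3.06 in Snf2h wildtype and 3.41, 3.20, 3.30 and 3.62 in Snf2h cKO samples. In the Brg1 experiment it read 3.53, 3.33 and 6.15 in wildtype and 3.59, 4.32 and 4.76 in cKO samples. The third wildtype replicate was the highest of its group in both experiments and lay above every knockout array of its experiment. The changes were -0.62 ± 0.39 in Snf2h cKO eyes (limma, adjusted p = 0.425) and -0.11 ± 0.73 in Brg1 cKO eyes (adjusted p = 0.983). The Brg1 change was 0.80 without wildtype replicate 3 and 0.21 without cKO replicate 1, so its sign rests on those arrays.

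Fosl1, also known as Fra-1, encodes a Fos family subunit found in migrating and wounded epithelium. Probe set 1417487_at read 2.02, 1.83 and 2.46 in Brg1 wildtype and 3.29, 4.27 and 4.57 in Brg1 cKO samples. In the Snf2h experiment it read 1.80, 2.33, 2.23 and 3.60 in wildtype and 1.90, 1.90, 1.97 and 2.04 in cKO samples. The Brg1 groups did not overlap, and the only wildtype array at the level of the Brg1 cKO arrays was Snf2h wildtype replicate 4. The Brg1 change was 1.94 ± 0.35, or 3.83-fold, with an unadjusted p of 0.000736 and an adjusted p of 0.0895 (limma, 3 against 3 arrays). The Snf2h change was -0.54 ± 0.33 (adjusted p = 0.412), and the Brg1 change exceeded it by 2.47 ± 0.52 (limma interaction, adjusted p = 0.0476). Without Snf2h wildtype replicate 4 the Snf2h change was -0.17 and the difference was 2.10 (adjusted p = 0.0301).

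The second Fosl1 probe set, 1417488_at, read 2.90, 2.69 and 2.99 in Brg1 wildtype and 3.14, 3.50 and 3.49 in Brg1 cKO samples, again without overlap. Its Brg1 change was smaller, at 0.52 ± 0.18 (limma, adjusted p = 0.490), and the difference between the knockout effects was 0.29 ± 0.29 (adjusted p = 0.721). In the Snf2h experiment it read 2.33 to 3.32 in wildtype and 2.80 to 3.20 in cKO samples, for a change of 0.23 ± 0.21 (adjusted p = 0.581). Both Fosl1 probe sets are dim, with mean log2 levels of 2.59 and 2.99 over all arrays where the median probe set has 6.77, and no detection calls came with the values. With 32 added to each intensity before log2, the Brg1 change of 1417487_at was 0.44 (adjusted p = 0.418) and the difference between the knockouts was 0.53 (adjusted p = 0.172). The Brg1 change of 1417487_at passed the test without Brg1 cKO replicate 1 (2.31, adjusted p = 0.0195). The difference between the knockouts kept its call without Brg1 cKO replicate 1, Snf2h wildtype replicate 1 or Snf2h wildtype replicate 4, and lost it without any other single array, with adjusted p up to 0.147.

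Jun encodes the central AP-1 subunit, which dimerises with all Fos proteins. Probe set 1417409_at read 7.54, 7.62, 7.53 and 7.16 in Snf2h wildtype and 8.03, 7.91, 7.62 and 7.83 in Snf2h cKO samples. Its Brg1 levels were 7.88, 7.94 and 8.06 in wildtype and 8.13, 8.11 and 8.31 in cKO samples. The knockout arrays lay above the wildtype arrays in both experiments, though by less than the printed digits between the nearest Snf2h arrays, and the changes were 0.38 ± 0.15 (limma, adjusted p = 0.247) and 0.22 ± 0.16 (adjusted p = 0.788). The second probe set, 1448694_at, gave overlapping groups, with 9.86 to 10.35 in Snf2h wildtype, 10.14 to 10.47 in Snf2h cKO, 10.35 to 10.41 in Brg1 wildtype and 10.22 to 10.64 in Brg1 cKO samples. Its changes were 0.15 ± 0.15 (adjusted p = 0.633) and -0.01 ± 0.18 (adjusted p = 0.992), so the 2 Jun probe sets gave no common pattern in Brg1 cKO eyes.

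Junb encodes a Jun family subunit that can oppose Jun and is abundant in skin. It read 4.08, 3.94 and 4.32 in Brg1 wildtype and 5.05, 5.21 and 4.92 in Brg1 cKO samples. In the Snf2h experiment it read 3.48, 3.81, 3.97 and 3.68 in wildtype and 4.27, 4.01, 4.12 and 4.03 in cKO samples. Every knockout array was above every wildtype array of its experiment, with a wide step in the Brg1 experiment and a narrow one in the Snf2h experiment. The Brg1 change was 0.95 ± 0.18, or 1.93-fold (limma, adjusted p = 0.0992), and the Snf2h change was 0.37 ± 0.15 (adjusted p = 0.245). Their difference was 0.57 ± 0.22 (adjusted p = 0.296). Junb is also dim, with a mean log2 level of 4.21 over all arrays where the median probe set has 6.77. Over all alternatives run, the Brg1 change lay between 0.41 and 1.05, with a limma adjusted p up to 0.394. The Snf2h change lay between 0.12 and 0.49. With 1 fit over all 14 arrays, which shares the spread between the experiments, the Brg1 adjusted p was 0.00895 for Junb and 0.0248 for Fosl1 1417487_at.

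**Figure D2:**
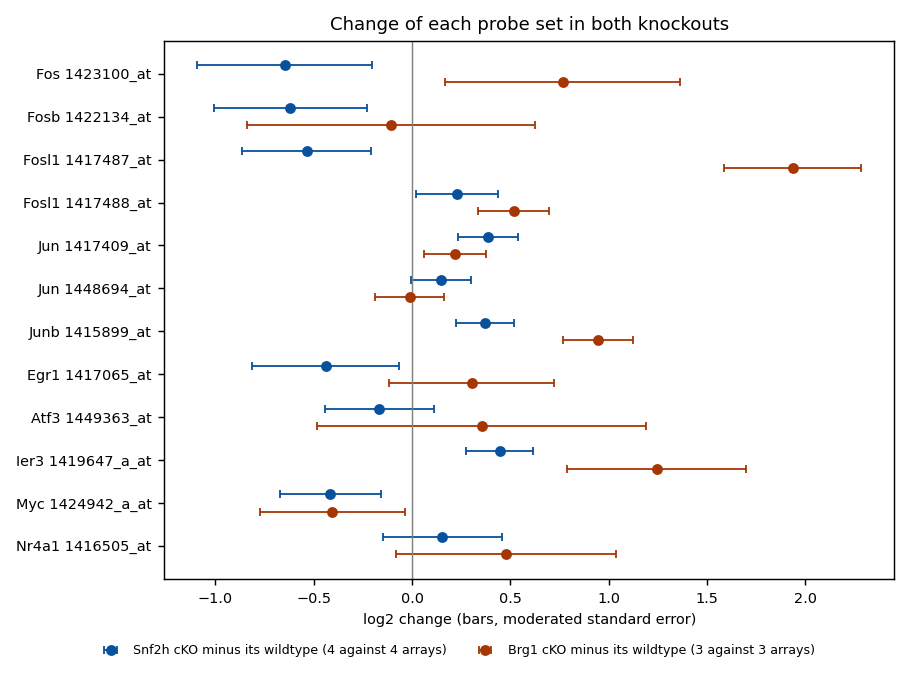
Log2 change of each probe set in Snf2h cKO eyes (blue, 4 against 4 arrays) and Brg1 cKO eyes (brown, 3 against 3 arrays), each against its own wildtype, with bars for the moderated standard error. Fosl1 1417487_at is at 1.94 in Brg1 cKO eyes and -0.54 in Snf2h cKO eyes, and Fosb and Atf3 have the longest Brg1 error bars.

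Egr1, a zinc finger factor induced by the same signals as Fos, read 10.21, 10.06, 10.61 and 9.03 in Snf2h wildtype and 9.002, 9.15, 9.66 and 10.33 in Snf2h cKO samples. It read 10.80, 9.61 and 11.18 in Brg1 wildtype and 10.34, 11.13 and 11.03 in Brg1 cKO samples. The groups overlapped in both experiments, with the low wildtype arrays replicate 4 of the Snf2h and replicate 2 of the Brg1 experiment. The changes were -0.44 ± 0.37 (limma, adjusted p = 0.554) and 0.30 ± 0.42 (adjusted p = 0.902). Without Brg1 wildtype replicate 2 the Brg1 change was -0.16.

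Nr4a1, also called Nur77, is an orphan nuclear receptor induced by growth and stress signals. It read 5.68, 4.77, 5.35 and 4.14 in Snf2h wildtype and 5.29, 4.85, 5.12 and 5.30 in Snf2h cKO samples. It read 5.22, 4.89 and 6.76 in Brg1 wildtype and 5.34, 6.87 and 6.09 in Brg1 cKO samples. The single high Brg1 wildtype array nearly reached the highest cKO array. The changes were 0.15 ± 0.30 (limma, adjusted p = 0.812) and 0.48 ± 0.56 (adjusted p = 0.879).

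Atf3, a CREB family repressor induced by stress, read 5.44, 4.98, 6.36 and 5.11 in Snf2h wildtype and 5.37, 5.47, 5.12 and 5.26 in Snf2h cKO samples. It read 4.79, 4.72 and 7.74 in Brg1 wildtype and 5.28, 6.99 and 6.04 in Brg1 cKO samples. All 3 Brg1 cKO arrays lay above wildtype replicates 1 and 2 and below wildtype replicate 3. The changes were -0.17 ± 0.28 (limma, adjusted p = 0.778) and 0.35 ± 0.84 (adjusted p = 0.948). The Brg1 change was 1.35 without wildtype replicate 3 (adjusted p = 0.686) and -0.16 without wildtype replicate 2. The Snf2h change was 0.13 without Snf2h wildtype replicate 3.

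Ier3, an ERK-regulated survival protein, read 8.05, 8.21 and 8.69 in Brg1 wildtype and 8.58, 10.47 and 9.64 in Brg1 cKO samples. In the Snf2h experiment it read 7.58, 7.91, 7.26 and 7.87 in wildtype and 7.96, 8.07, 8.22 and 8.15 in cKO samples. The Snf2h groups did not overlap, and in the Brg1 experiment cKO replicate 1 fell within the wildtype range. The Brg1 change was 1.24 ± 0.45, or 2.37-fold (limma, adjusted p = 0.520), and the Snf2h change was 0.45 ± 0.17 (adjusted p = 0.236). Leaving out Brg1 cKO replicate 1 gave 1.74 (adjusted p = 0.114), and leaving out cKO replicate 2 gave 0.79 (adjusted p = 0.689).

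Myc, a helix-loop-helix factor that drives growth genes with its partner Max, read 3.84, 3.95, 4.05 and 4.01 in Snf2h wildtype and 3.57, 3.68, 4.16 and 2.77 in Snf2h cKO samples. It read 6.89, 5.90 and 6.36 in Brg1 wildtype and 5.58, 5.66 and 6.69 in Brg1 cKO samples. The main step was between the experiments, with all 8 Snf2h arrays at 2.77 to 4.16 and all 6 Brg1 arrays at 5.58 to 6.89. The experiments differ in strain, and whether their arrays were processed together is not stated, so strain and experiment cannot be told apart. Within experiments the changes were -0.42 ± 0.26 (limma, adjusted p = 0.414) and -0.41 ± 0.37 (adjusted p = 0.835). With 1 array left out in turn, the Snf2h change ran from -0.62 without cKO replicate 3 to -0.16 without cKO replicate 4. The Brg1 change ran from -0.76 without cKO replicate 3 to -0.15 without wildtype replicate 1. Their difference was 0.01 ± 0.46 (adjusted p = 0.996), and its sign turned with quantile normalization.

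The spread between replicates divided the members more clearly than the knockouts did. The within-group SD was 0.93 for Atf3, 0.91 for Fosb, 0.85 for Fos, 0.68 for Nr4a1 and 0.64 for Egr1, each in the top 10% of all probe sets, whose median SD was 0.29. Jun and Junb were at the other end, with SDs of 0.16 and 0.18 for the Jun probe sets and 0.17 for Junb.

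The same arrays were high or low for many members at once. In the Brg1 experiment, wildtype replicate 3 held the highest wildtype level of 11 of 12 probe sets, where it did so for 36.4% of all probe sets, and Myc was the exception. Wildtype replicate 2 held the lowest level of 10 of 12 (34.8% of all). Among Brg1 cKO arrays, replicate 1 was lowest for 9 of 12 (28.3% of all) and replicate 2 highest for 7 of 12 (34.2%). In the Snf2h wildtype group, replicate 4 was lowest for 7 of 12 (27.3%) and replicate 3 highest for 6 of 12 (28.9%). These are arrays within a group, so the counts describe single arrays and not a condition.

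The gap of Brg1 wildtype replicate 3 over the mean of the other wildtype arrays was 2.98 for Atf3, or 7.91-fold, which was the widest of all 22626 probe sets on that array. For Fosb it was 2.72, or 6.58-fold, the 5th widest. The gaps were 1.71 for Nr4a1 (48th), 1.46 for Fos (84th) and 0.97 for Egr1 (379th). Jun and Junb shared little of this, with gaps of 0.14 and 0.05 for the Jun probe sets and 0.30 for Junb. Without that array the Brg1 changes were 1.35 for Atf3, 1.25 for Fos, 1.05 for Nr4a1, 0.80 for Fosb and 0.63 for Egr1, all positive and none called by limma. The summed neutrophil, wound keratinocyte and cornified skin marker intensities of that array were 373, 725 and 450, within or below the span of the other two wildtype arrays. Its sums were the highest of the 3 wildtype arrays for macrophage markers (1917 against 1404 and 1489), corneal stroma and mesenchyme markers (16560 against 14150 and 11770), endothelial markers (1142 against 984 and 1014) and photoreceptor markers (4851 against 4455 and 4687). The part of these in its levels was not tested.

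Snf2h wildtype arrays showed a smaller version of the same split for most of these genes. Replicate 3 exceeded the mean of the other wildtype arrays by 1.70 for Fosb, 1.20 for Fos, 1.19 for Atf3 and 0.84 for Egr1. For Nr4a1 its gap was 0.48, while replicate 1 had the widest gap at 0.93. Replicate 4 lay below the others, with gaps of -1.45 for Fos, -1.26 for Egr1, -1.25 for Fosb and -1.12 for Nr4a1. Replicate 3 is the array with the wide Gapdh difference, and its cornified skin markers summed to 4547 against 530 to 1216 in the other wildtype arrays. The part of these in its levels was not tested. The Snf2h change of Fos was -0.35 without wildtype replicate 3 and -1.01 without wildtype replicate 4, and that of Fosb was -0.20 and -0.93, with adjusted p of 0.172 or more in each case.

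**Figure D3:**
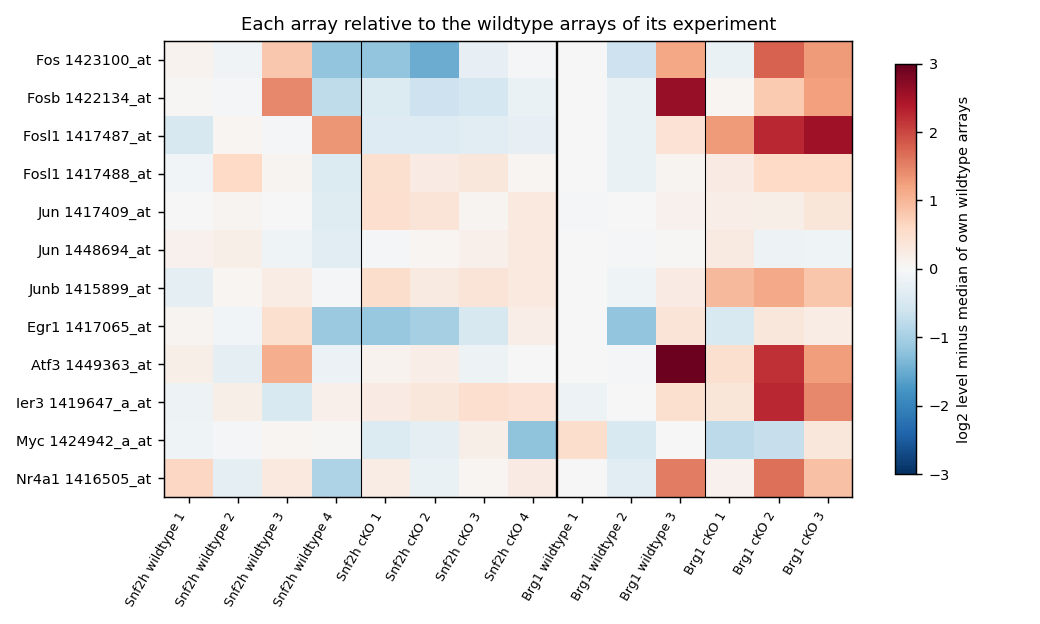
Log2 level of each probe set (rows) on each array (columns) minus the median of the wildtype arrays of its experiment, from blue (below) to red (above), with lines between groups. Brg1 wildtype replicate 3 is red for Atf3, Fosb, Nr4a1 and Fos, and Fosl1 1417487_at and Junb are red on all 3 Brg1 cKO arrays.

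**Figure D4:**
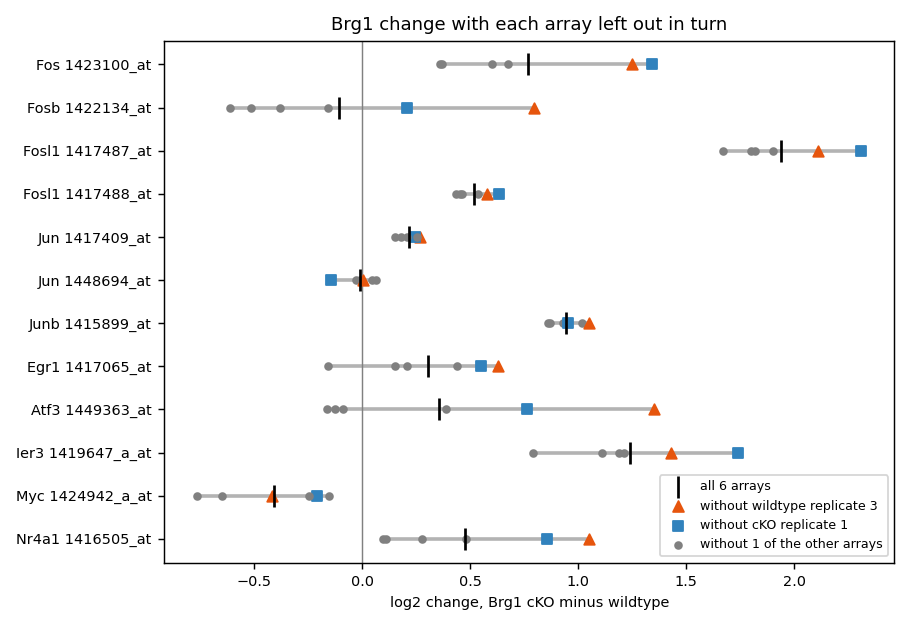
Log2 change in Brg1 cKO eyes for each probe set with all 6 arrays (black) and with each array left out in turn (points on a grey range). The Fosl1 and Junb changes stay above 0 throughout, between 1.67 and 2.31 for Fosl1 1417487_at, whereas Fosb spans -0.61 to 0.80 and Atf3 spans -0.16 to 1.35.

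Other genes of the pathway were read from 7 lists, each gene by 1 probe set. Of 99 listed genes 92 were measured, and 2 were called higher and 0 lower in Brg1 cKO eyes, where 0.815% of all genes were called in either direction and 0.484% higher. In Snf2h cKO eyes 0 were called, where 0.00807% of all genes were. At an unadjusted p under 0.05 the share of all genes was 16.4% in the Snf2h and 8.99% in the Brg1 experiment. Changes lay above 0 for 67 of 92 genes in Brg1 cKO eyes with a median of 0.17 (0.02 over all genes), and for 40 of 92 in Snf2h cKO eyes with a median of -0.06 (-0.05 over all genes). The Myc and stress lists had the only medians above 0 in Snf2h cKO eyes.

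The other AP-1 subunits, 7 of 7 measured, had a median change of 0.43 in Brg1 cKO eyes and -0.09 in Snf2h cKO eyes, with 0 called. Batf3, a Batf family partner of Jun proteins, read 4.78, 5.19 and 4.71 in Brg1 wildtype and 5.51, 5.99 and 5.22 in Brg1 cKO samples. Those groups were separated by a narrow step, with a change of 0.68 ± 0.25 (limma, adjusted p = 0.518). Fosl2, the closest relative of Fosl1, gave 0.44 ± 0.36 (adjusted p = 0.810) with overlapping groups. The upstream kinases and serum response factors, 14 of 17 measured, had medians of 0.16 in Brg1 and -0.06 in Snf2h cKO eyes with 0 called. Map2k1, the ERK kinase MEK1, stood at 0.67 ± 0.26 (adjusted p = 0.571) in Brg1 cKO eyes. Creb1 gave -0.48 ± 0.17 (limma, adjusted p = 0.209) in Snf2h and 0.53 ± 0.22 (adjusted p = 0.588) in Brg1 cKO eyes. Its groups did not overlap in either experiment. Its other probe sets gave 0.15, -0.25 and -0.01 in Snf2h and -0.24, 0.19 and 0.03 in Brg1 cKO eyes.

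The other immediate early genes, 22 of 22 measured, had a median change of 0.26 in Brg1 and -0.14 in Snf2h cKO eyes, with 0 called. Ptgs2, the inducible cyclooxygenase, read 3.87, 4.67 and 5.71 in Brg1 wildtype and 6.21, 8.56 and 7.77 in Brg1 cKO samples. Its groups did not overlap, yet the change of 2.76 ± 0.66 (limma, adjusted p = 0.209) was not called, and its other probe set gave 0.86. Socs3, an inhibitor of cytokine signalling through STAT3, gave 1.70 ± 0.36 (adjusted p = 0.146) without overlap, and 1.42 and 1.98 by its other probe sets. Zfp36, which destabilises cytokine mRNA, gave 1.34 ± 0.58 (adjusted p = 0.623). In Snf2h cKO eyes Gadd45b had the smallest p of this list, at -0.47 ± 0.13 (limma, adjusted p = 0.162) without overlap. Its other probe sets gave -0.42 and 1.08. Egr2, a paralogue of Egr1, gave -1.26 ± 0.48 (adjusted p = 0.235) and -1.07 by its other probe set in Snf2h cKO eyes. Among these 22 genes 16 had their highest wildtype level in Brg1 wildtype replicate 3 (35.6% of all genes), and 12 had their lowest cKO level in Brg1 cKO replicate 1 (28.5%).

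Feedback phosphatases and repressors, 9 of 11 measured, had medians of -0.04 in Brg1 and -0.16 in Snf2h cKO eyes with 0 called. Dusp6, the phosphatase that switches off ERK, read 9.49, 9.51, 9.43 and 9.36 in Snf2h wildtype and 9.05, 9.08, 9.04 and 8.98 in Snf2h cKO samples. Those groups did not overlap, and the change was -0.41 ± 0.12 (limma, adjusted p = 0.157). In Brg1 cKO eyes Dusp6 gave -0.23 ± 0.18 (adjusted p = 0.808). Nfkbia, the inhibitor of NF-kB, gave 0.36 ± 0.19 (adjusted p = 0.717) in Brg1 cKO eyes.

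Genes that AP-1 is known to activate gave both calls in Brg1 cKO eyes, with 2 of 14 measured genes higher, 0 lower and a median of 0.81, while Snf2h cKO eyes had 0 called and a median of -0.12. Mmp3, the matrix protease stromelysin, read 4.46, 4.28 and 4.59 in Brg1 wildtype and 9.53, 10.60 and 10.52 in Brg1 cKO samples. It rose by 5.77 ± 0.30, or 54.7-fold (limma, adjusted p = 0.000586). Mmp10, a related stromelysin, read 2.79, 3.56 and 2.77 in wildtype and 5.46, 7.45 and 6.84 in cKO samples and rose by 3.54 ± 0.50 (adjusted p = 0.0368). Every Brg1 cKO array was above every wildtype array for both genes. The Mmp10 call was lost with 32 added before log2 (1.71, adjusted p = 0.328) and without Brg1 wildtype replicate 1 (adjusted p = 0.212), 2 (0.116) or 3 (0.171) or cKO replicate 3 (0.132), while Mmp3 was called in each of these. Timp1, a metalloproteinase inhibitor, gave 2.85 ± 0.60 (adjusted p = 0.151) and the cytokine Il6 gave 2.22 ± 0.53 (adjusted p = 0.204), both without overlap.

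The Myc list, 16 of 16 measured, had medians of 0.09 in Brg1 and 0.12 in Snf2h cKO eyes with 0 called. Srm, which makes spermidine, gave -0.46 ± 0.13 (limma, adjusted p = 0.148) in Snf2h cKO eyes and 0.31 ± 0.16 (adjusted p = 0.721) in Brg1 cKO eyes. The Atf4 and Atf3 stress list, 10 of 10 measured, had medians of 0.18 and 0.13 with 0 called. Chac1, an Atf4 target that degrades glutathione, gave 0.77 ± 0.24 (adjusted p = 0.382) in Brg1 cKO eyes, and Ddit3, the stress factor CHOP, gave 0.59 ± 0.21 (adjusted p = 0.219) in Snf2h cKO eyes.

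**Figure D5:**
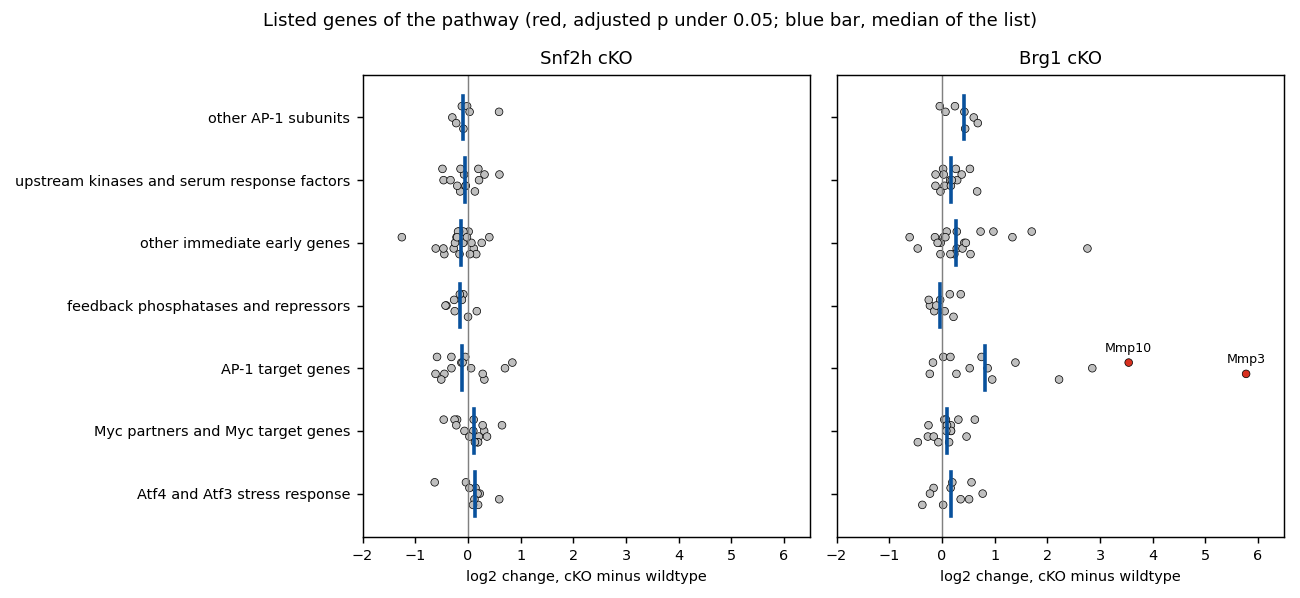
Log2 change of each measured gene of the 7 pathway lists (rows), in Snf2h cKO eyes (left) and Brg1 cKO eyes (right), with the list median as a blue bar and called genes in red. Mmp3 at 5.77 and Mmp10 at 3.54 are the only red points.

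Summed cell type markers separated the Brg1 groups for some lists, namely neutrophil, wound keratinocyte, cornified skin and lens. The sums overlapped for macrophage, corneal and surface epithelium, photoreceptor, endothelium, and corneal stroma and mesenchyme. Neutrophil markers, 9 of 10 measured, summed to intensities of 283 to 415 in wildtype and 4084 to 12730 in cKO samples, with the highest sum in cKO replicate 2. S100a8 and S100a9 made up 97.4% to 97.7% of the cKO sums, and the other 7 markers summed to 87.2 to 114.5 in wildtype and 96.9 to 333.8 in cKO samples. S100a8 and S100a9 were called higher (5.01 and 4.48), while the list median was 0.96. Changes lay above 0 for 6 of 9 markers and below 0 for 3. Every cKO array was above every wildtype array for 4 of 9, among them Csf3r and Cxcr2, which were not called. The granule markers Mpo and Elane gave -0.01 and -0.02, at dim log2 levels of 1.88 to 2.57 on the Brg1 arrays. Wound keratinocyte markers, 6 of 6 measured, summed to 725 to 842 in wildtype and 3171 to 5250 in cKO samples, with 4 of 6 called higher, among them Krt16 at 6.75 and Sprr1b at 5.62. Cornified skin markers, 5 of 5 measured, summed to 450 to 736.5 in wildtype and 997 to 1339 in cKO samples, with a median change of 0.20 and 0 called. The separation of these sums rests on Krtdap, at log2 levels of 8.42, 8.35 and 7.23 in wildtype and 9.55, 9.68 and 9.97 in cKO samples. Changes lay above 0 for 3 of 5 and below 0 for 2, Krt1 and Krt10. Every cKO array was below every wildtype array for Krt10. Macrophage markers, 7 of 7 measured, summed to 1404 to 1917 and 1828 to 3313. Photoreceptor sums were 4455 to 4851 in wildtype and 3561 to 7432 in cKO samples. Those of endothelium were 984 to 1142 and 907 to 1261, and those of corneal stroma and mesenchyme 11770 to 16560 and 9744 to 13610. Lens markers, 6 of 8 measured, summed to 41720 to 46610 in wildtype and 9465 to 26760 in cKO samples, with 0 called. Corneal and surface epithelium markers, 5 of 5 measured, summed to 2608 to 3374 in wildtype and 1647 to 3023 in cKO samples, with a median change of -1.46. Among them Krt12, the keratin of corneal epithelium, was called lower at -3.70 (limma, adjusted p = 0.000586), while Trp63 at -1.94 and Aldh3a1 at -1.46 were not called although their groups did not overlap. Krt14 went the other way at 0.98, also without overlap and not called, and was the only 1 of the 5 with a change above 0. The part of these cells in the Brg1 levels of Fosl1, Junb, Ier3, Mmp3 and Mmp10 was not tested.

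Likeness of profiles was measured as the root mean square difference of standardised log2 levels over the 14 arrays, which take in the step between the experiments. Over 7225 genes other than the members, those nearest to Fos were Noct (0.278), Abca1 (0.306) and Pdk4 (0.342), where the median gene had 1.42. Nearest to Egr1 were Samd4 (0.404), Trim25 (0.454) and Srr (0.486). Nearest to Atf3 were Ccn2 (0.497), Sult1a1 (0.519) and Pvalb (0.529), and nearest to Myc were Tm2d1 (0.209), Clint1 (0.244) and Sfxn1 (0.253). Among the members, Fos was the nearest to Egr1 of all 12392 other genes (0.362), Atf3 was the 2nd nearest to Fosb (0.509) and Nr4a1 the 10th nearest to Atf3 (0.575). Junb was the 14th nearest to Fosl1 (0.710).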

How the data were processed

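Expression was measured on 14 Affymetrix arrays in 4 groups. The authors deposited 1 linear intensity per probe set and array. RMA made these values, per the submitters' processing notes, and its version is not given in the sources used here. The log2 of the deposited intensity was taken with no further scaling. Of 22690 probe sets, 64 controls were left out. The array annotation gave 1 gene to 20380 probe sets, several to 691 and none to 1555. All columns of the table matched a sample.

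Each knockout was compared with its own wildtype in R 4.3.3 with limma 3.58.1, two-sided, and the interaction was tested over all arrays. P-values were adjusted by Benjamini-Hochberg over all 22626 probe sets, with calls at 0.05. Errors of changes are moderated standard errors. Each listed gene was read by its brightest probe set on average and kept the p-value of that fit. The number of arrays limits the precision.

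The members and lists were chosen with earlier results of these data known. Named were all members, up to 4 genes per list by smallest p in the Brg1 and 2 in the Snf2h comparison, 3 genes by likeness for each of Fos, Egr1, Atf3 and Myc, both targeted genes, and marker genes beside results. Not all of the list genes so named are described above. Likeness used genes above the median level. Tested on simulated data with 50 changed probe sets per size, a log2 change of 1 was recovered in 36% (Snf2h), 12% (Brg1) and 14% (interaction) of cases, and a change of 2 in 90%, 80% and 72%. Alternatives were other normalizations, filters, offsets, priors, weights, fits, a replicate block, near-identical arrays averaged and arrays left out.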

Additional observations from a re-analysis of the deposited data

Results flagged for a closer look

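The Brg1 knockout effect exceeded the Snf2h knockout effect by the limma interaction test for 4 of 47 probe sets, the 12 of the members and 35 of other named genes, against 0.659% of all probe sets in either direction. The other named genes were taken by their smallest p within each knockout, so this count is a description. Gene deleted, strain and experiment cannot be told apart in these differences. The difference of log2 changes was 2.47 for Fosl1 1417487_at (adjusted p = 0.0476), 6.39 for Mmp3 (adjusted p = 6.1e-06), 3.67 for Mmp10 (adjusted p = 0.00476) and 2.73 for Il6 (adjusted p = 0.0463). With each of the 14 arrays left out in turn, the call was lost in 11 cases for Fosl1 and 13 for Il6 (adjusted p up to 0.147 and 0.128) and in 0 for Mmp3 and Mmp10.

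One array lay far from the other 3 of its group for 2 of the 104 groups of 4 arrays that were examined. Ptgs2 1417262_at stood at a log2 level of 5.07 in Snf2h wildtype replicate 2, and Smarca5 1424206_at stood at 9.82 on the same array. Chance alone gives such a gap in about 1 in 20 groups.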

How the results depend on the processing

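Over the 22626 probe sets, the count called in the Snf2h comparison was 3 and became 7 in 1 fit over all arrays, 5 with an offset of 32 before log2, 513 with array weights, 7 with trended robust eBayes and 0 with Snf2h cKO replicates 1 and 2 averaged, and it ranged from 0 to 280 with 1 array left out. The count in the Brg1 comparison was 134 and became 20 with the offset, 294 in 1 fit and 25 with dim probe sets left out, and it ranged from 26 to 204 with 1 array left out. The interaction count was 149 and became 50 with the offset, 8 with dim probe sets left out and 89 with the averaged arrays, and it ranged from 62 to 297. Dim probe sets left out means fewer were tested, among them 5 of the 12 of the members. For the other settings the cause was not tested.

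Of the member probe sets, 0 were called in the Snf2h comparison under every alternative run. In the Brg1 comparison the count of 0 became 2 in 1 fit over all arrays (Fosl1 1417487_at and Junb) and 1 with trended robust eBayes (Fosl1 1417487_at, adjusted p = 0.0397), and it ranged from 0 to 1 with 1 array left out. The interaction count of 1 became 0 with the offset, quantile normalization of all arrays or the averaged arrays, and it ranged from 0 to 1 with 1 array left out. It was also 0 with 1 probe set per gene or dim probe sets left out, where Fosl1 1417487_at was not among the probe sets tested, so those counts say nothing about its call.

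The sign turned for few members outside left-out arrays. Atf3 in the Snf2h comparison was 0.0372 with array weights. Jun 1448694_at in the Brg1 comparison was 0.0314 with quantile normalization of all arrays and 0.0266 within each experiment. The interaction of Myc was -0.12 under both and -0.17 with the offset. With 1 array left out, the ranges that crossed 0 were -0.33 to 0.13 for Atf3 and -0.13 to 0.38 for Nr4a1 in the Snf2h comparison. They were -0.61 to 0.80 for Fosb, -0.14 to 0.0655 for Jun 1448694_at, -0.16 to 0.63 for Egr1 and -0.16 to 1.35 for Atf3 in the Brg1 comparison. The interaction ranged from -0.34 to 0.26 for Myc and from -0.0581 to 0.90 for Nr4a1. Smarca5 1424206_at ranged from -0.34 to 0.059, Smarca4 1426804_at from -0.14 to 0.21 and Nab2 from -0.02 to 0.36.

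The replicate numbers did not pair the samples. Deviations of same-numbered arrays correlated at 0.071, -0.224, -0.228 and 0.029 in the Snf2h and 0.064, 0.085 and 0.129 in the Brg1 experiment. Those of differently numbered arrays correlated at -0.227 to 0.282 in the Snf2h and -0.318 to 0.237 in the Brg1 experiment. With the replicate block 0 probe sets were called in the Snf2h comparison, 42 in the Brg1 comparison and 76 in the interaction, and 0 member probe sets in each, so the Fosl1 interaction lost its call (adjusted p = 0.0674). With 3 or 4 arrays a group, and no detection calls for dim probe sets, changes near a log2 of 1 mostly go uncalled.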
